A study of Mus musculus with 10 samples.

Results

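The genes described here code for the proteins that form, restrain and dissolve blood clots: fibrinogen and the clotting factors, their cofactors, the plasma inhibitors, the plasminogen system and the receptors through which cells start or answer clotting. They were chosen by name, from 37 genes of coagulation and fibrinolysis, and not by a rule on their values. Earlier results of these data were known when the list was made. Of the 37 genes, 34 could be measured singly, of 22180 genes tested on the arrays. Levels of Serpine2 and Cpb2 were not analysed here, since the annotation used lists no cluster for them, and Klkb1 is annotated only together with Cyp4v3 on a shared transcript cluster. RNA was compared between 3 kinds of mouse cells: hepatocyte-like cells that had been differentiated from embryonic stem cells (3 arrays, labelled ES_HLC), hepatocytes from adult liver (3 arrays, Ad_Hep) and undifferentiated embryonic stem cells (4 arrays, mESC). All 10 samples bear the same genotype label, a line that carries luciferase and GFP transgenes under the CAG promoter, so the transgenes are shared by every group. The labels also give a passage below 20 for all of them, adult hepatocytes included, and no age. They call the replicates biological without saying whether these were separate cultures or animals, so a p-value covers only the spread among the samples at hand, which may be technical.

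Clotting runs as a cascade of proteases that circulate as inactive zymogens. Tissue factor on cell surfaces starts it, cofactors speed it up, thrombin turns fibrinogen into fibrin, and serpins and the protein C system hold it back, while plasmin dissolves the clot. Hepatocytes make most of the plasma zymogens, fibrinogen and the serpins, whereas tissue factor, thrombomodulin, plasminogen activators and thrombin receptors are made by many cells outside the hepatocyte lineage. In bulk samples, fewer cells of a type and less RNA per cell cannot be told apart.

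Levels are the deposited log2 values, with array medians of 4.91 to 5.07, and 5.5 is taken here as the level below which a transcript is near the floor of the arrays. A fold against a level that low is uncertain, and precision is limited by how many arrays there are. Pearson's r across all transcript clusters, which are not independent replicates, was 0.960 or more between arrays of a kind and 0.927 or less between kinds. The label of ES_HLC was set against 10 adult hepatocyte markers: all 10 were called higher in Ad_Hep than in mESC, but 1, Apoa1, in ES_HLC. All 5 measured fetal hepatic markers (Afp, Krt8, Krt18, Dlk1 and Igf2) were called higher in ES_HLC than in mESC. Of these, Krt8 and Krt18 were also called higher in Ad_Hep, at means of 9.12 and 9.95 against 6.77 and 6.22 in mESC. ES_HLC replicate 3 stood apart: albumin (Alb) was at 10.80 there and at 4.85 and 5.14 in replicates 1 and 2, against 13.42 to 13.48 in Ad_Hep and 4.62 to 5.51 in mESC. Afp was at 6.69 in replicate 3 and at 9.13 and 9.30 in replicates 1 and 2. Of 8 embryonic stem cell markers 7 were lower in ES_HLC than in mESC, with list means of 5.14, 5.02 and 5.78 in ES_HLC replicates 1, 2 and 3, 4.79 to 4.98 in Ad_Hep and 9.26 to 9.32 in mESC. Nanog was at 7.12 in replicate 3 and at 5.08 and 5.09 in replicates 1 and 2, and Tdgf1 at 6.501 in replicate 3 and at 3.90 and 3.83 in replicates 1 and 2.

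Most of the clotting genes were high in Ad_Hep, and 20 of these 23 were not called between ES_HLC and mESC. Most genes on the arrays were not called there either: 8.61% of all genes were higher and 7.35% lower. A smaller group of 7 genes (F2r, Plat, Plaur, F3, Tfpi, Plau and Thbd) was higher in ES_HLC than in both other kinds. A gene is called higher or lower here at an adjusted p under 0.05 (limma, Benjamini-Hochberg over all genes) with a log2 difference of at least 1. In Ad_Hep against mESC 23 of 34 members were higher and 2 lower, where 11% of all genes were called higher and 15.6% lower. In ES_HLC against mESC 11 of 34 were higher and 1 lower, where 8.61% of all genes were higher and 7.35% lower. In ES_HLC against Ad_Hep 7 of 34 were higher and 23 lower, where 13.9% of all genes were higher and 9.12% lower. The median log2 difference of the 34 members was 5.64, 0.55 and -5.40 in these comparisons in the order given, and that of all genes was 0.05, -0.01 and -0.04. The comparisons share arrays in pairs, so their counts are not independent of each other.

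**Figure D1:**
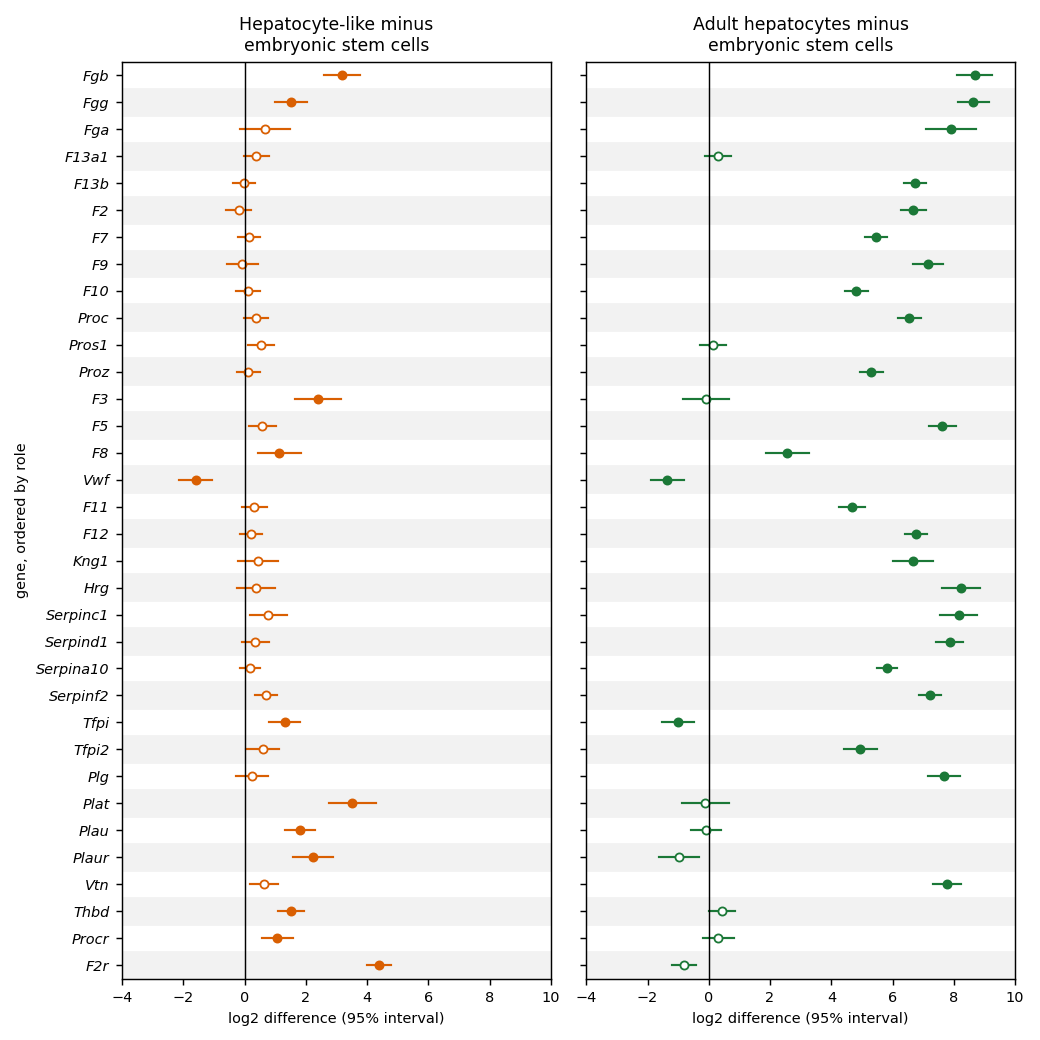
Log2 differences of the 34 measured members (rows, by role) from mESC, for ES_HLC on the left and Ad_Hep on the right; points are limma estimates, lines their 95% intervals, and filled points are called genes. Both panels share the 4 mESC arrays. The differences reach 4.40 (F2r) in ES_HLC and 8.67 (Fgb) in Ad_Hep.

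Fibrinogen, the precursor of fibrin, is built from 3 chains whose genes Fga, Fgb and Fgg lie next to each other on chromosome 3 in the RefSeq annotation of GRCm38.p6. In ES_HLC Fgb and Fgg rose over mESC and Fga was not called. Their promoter windows, from 250 bases before to 50 bases after the RefSeq start site, are shown because the chains are known to be expressed together in liver. Sequences run 5′ to 3′ on the gene's strand, and capitals mark matches on either strand to gttaat, the repeated unit of the site of the hepatocyte factor HNF1, or to ttgcnnaa, a C/EBP motif.
Fgb, chr3:83049814-83050113, minus strand: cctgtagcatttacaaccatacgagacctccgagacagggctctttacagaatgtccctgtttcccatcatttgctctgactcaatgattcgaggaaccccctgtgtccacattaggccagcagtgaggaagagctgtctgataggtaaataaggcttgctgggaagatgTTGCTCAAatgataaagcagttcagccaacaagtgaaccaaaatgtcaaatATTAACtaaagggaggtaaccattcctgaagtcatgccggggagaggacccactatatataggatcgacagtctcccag
Fgg, chr3:83007474-83007773, plus strand: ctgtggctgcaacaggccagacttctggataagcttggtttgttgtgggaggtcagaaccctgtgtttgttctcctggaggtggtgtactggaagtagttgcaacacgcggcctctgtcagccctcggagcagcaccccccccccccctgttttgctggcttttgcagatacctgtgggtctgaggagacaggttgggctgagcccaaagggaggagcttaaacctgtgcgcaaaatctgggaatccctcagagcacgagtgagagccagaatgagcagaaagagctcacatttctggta
Fga, chr3:83025903-83026202, plus strand: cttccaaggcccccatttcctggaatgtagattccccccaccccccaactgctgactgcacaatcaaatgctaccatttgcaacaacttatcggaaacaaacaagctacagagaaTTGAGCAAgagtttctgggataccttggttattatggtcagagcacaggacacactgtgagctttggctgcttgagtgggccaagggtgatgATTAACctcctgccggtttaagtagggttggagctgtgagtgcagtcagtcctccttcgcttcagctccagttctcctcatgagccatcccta
The Fgb and Fga windows each held 1 match to either motif, and these 2 motifs do not overlap there. Relative to the start site, the HNF1 match began at -29 in Fgb and at -43 in Fga, and the C/EBP match at -80 and at -135. The Fgg window held neither. A match describes letters in this window and was not tested as a binding site.

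The beta chain gene Fgb read 6.67, 7.99 and 6.85 in ES_HLC, 12.69, 12.64 and 12.68 in Ad_Hep, and 3.93, 4.23, 3.72 and 4.10 in mESC. The 3 kinds did not overlap, and every ES_HLC array lay well above the stem cells. Fgb rose by 3.18 ± 0.27 (log2 difference ± SE), 9.05-fold, in ES_HLC over mESC (limma, adjusted p = 2.27e-06), which is 36.6% of its log2 distance to Ad_Hep. Each SE of a difference pools the spread of all 3 kinds, so it can understate the spread of ES_HLC. The SD of Fgb was 0.72 in ES_HLC, 0.02 in Ad_Hep and 0.22 in mESC. Fgb was still 45.2-fold lower in ES_HLC than in Ad_Hep (-5.497 ± 0.29, adjusted p = 6.84e-09). The gamma chain gene Fgg read 4.91, 5.77 and 6.06 in ES_HLC, 12.88, 12.58 and 12.61 in Ad_Hep, and 4.10, 3.96, 3.87 and 4.28 in mESC. It too separated the 3 kinds, but its lowest ES_HLC array was under the floor level. Fgg rose by 1.53 ± 0.24 in ES_HLC over mESC (adjusted p = 3.54e-04), 17.7% of the distance to Ad_Hep.

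The alpha chain gene Fga read 3.47, 4.58 and 5.57 in ES_HLC, 11.88, 11.77 and 11.66 in Ad_Hep, and 4.09, 3.38, 3.92 and 4.08 in mESC. Its ES_HLC arrays spread over 2.10 log2 units and overlapped the stem cells. The difference of Fga between ES_HLC and mESC was 0.67 ± 0.37 (adjusted p = 0.222), and without ES_HLC replicate 1 it was 1.21 and passed (adjusted p = 0.00639), while without replicate 3 it was 0.16 (adjusted p = 0.761). The 3 genes were near the floor in mESC, and their differences come from different probes, so the sizes of the differences were not compared between the chains.

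The remaining genes of this step are the subunits of factor XIII, the transglutaminase that cross-links fibrin. The carrier subunit gene F13b, known to be made in liver, averaged 3.12 ± 0.05 in ES_HLC, 9.88 ± 0.28 in Ad_Hep and 3.15 ± 0.10 in mESC (mean ± SD, n = 3, 3 and 4), and rose by 6.73 ± 0.16 in Ad_Hep over mESC (adjusted p = 7.76e-12). Its difference between ES_HLC and mESC was -0.02 ± 0.16 (95% interval -0.37 to 0.33). The catalytic subunit gene F13a1, known from macrophages and platelets, had group means of 4.57, 4.49 and 4.19, under the floor level in all 3 kinds, and was not called in any comparison.

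**Figure D2:**
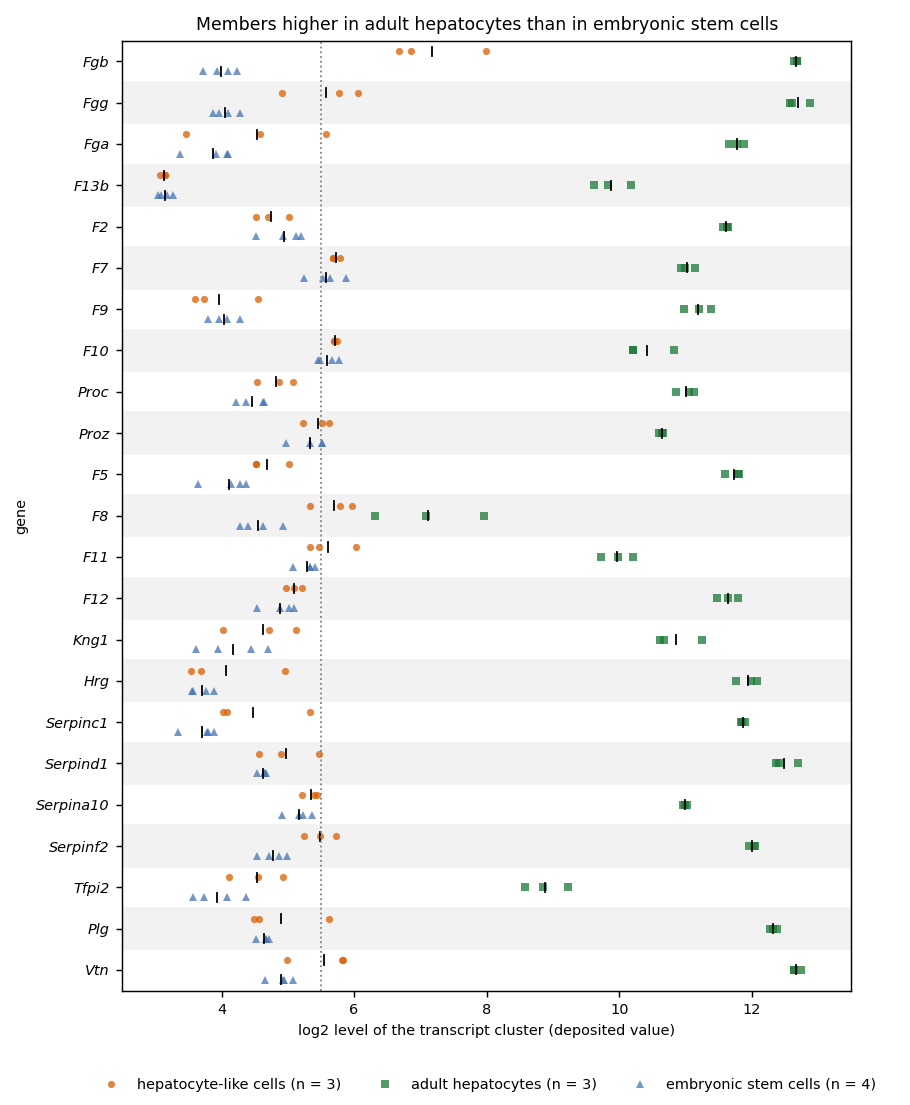
Deposited log2 levels of the 23 members called higher in Ad_Hep than in mESC; each point is an array, black ticks are group means and the dotted line marks 5.5. Ad_Hep lie to the right of both other kinds in every row, and the ES_HLC arrays leave the stem cell range most clearly in Fgb, where they read 6.67 to 7.99. All ES_HLC arrays also lie above all mESC arrays, more narrowly, in Fgg, F5, F8, Serpinc1 and Serpinf2.

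The vitamin K-dependent proteins carry glutamate residues that are carboxylated so that they can bind membranes. They comprise the zymogens F2 (prothrombin), F7, F9, F10 and Proc (protein C) and the cofactors Pros1 (protein S) and Proz (protein Z). In Ad_Hep 6 of the 7 rose over mESC, where 11% of all genes were called higher. In ES_HLC against mESC 0 of 7 were called in either direction, where 8.61% of all genes were higher and 7.35% lower. F9, whose human loss causes haemophilia B, had the largest difference: it read 3.59, 3.74 and 4.55 in ES_HLC, 11.39, 10.98 and 11.20 in Ad_Hep, and 4.27, 4.09, 3.79 and 3.97 in mESC. ES_HLC and mESC arrays overlapped, all under the floor level. F9 rose by 7.16 ± 0.23 in Ad_Hep over mESC (adjusted p = 5.15e-11), and differed by -0.07 ± 0.23 between ES_HLC and mESC (adjusted p = 0.880, 95% interval -0.56 to 0.42).

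The other 5 zymogen and cofactor genes that rose in Ad_Hep over mESC did so by 6.67 ± 0.19 (F2), 6.55 ± 0.18 (Proc), 5.45 ± 0.16 (F7), 5.31 ± 0.17 (Proz) and 4.82 ± 0.18 (F10). Their differences between ES_HLC and mESC lay between -0.19 (F2) and 0.37 (Proc), and each overlapped between these kinds. F7, F10 and Proz are neighbours on chromosome 8, with no other protein-coding gene between them, and all 3 were low in ES_HLC, at means of 5.72, 5.71 and 5.45. Pros1, given in full after its values were seen, read 8.69, 8.97 and 9.25 in ES_HLC, 8.77, 8.57 and 8.35 in Ad_Hep, and 8.08, 8.63, 8.47 and 8.56 in mESC. The largest of its differences was 0.53 ± 0.19 in ES_HLC over mESC (adjusted p = 0.0538, 95% interval 0.12 to 0.95), so Pros1 was not called in any comparison.

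Tissue factor, the product of F3, is the membrane protein that binds factor VII and starts clotting. F3 read 8.05, 9.26 and 9.88 in ES_HLC, 6.40, 6.92 and 6.38 in Ad_Hep, and 6.27, 6.75, 7.05 and 6.57 in mESC. All ES_HLC arrays lay above both other kinds, which overlapped each other. F3 rose 5.28-fold in ES_HLC over mESC (2.40 ± 0.35, adjusted p = 2.05e-04) and 5.63-fold over Ad_Hep (2.49 ± 0.37, adjusted p = 1.55e-04).

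The cofactor gene F5, whose product serves factor X, read 4.52, 4.52 and 5.01 in ES_HLC, 11.80, 11.79 and 11.59 in Ad_Hep, and 4.14, 4.38, 3.64 and 4.27 in mESC. The kinds did not overlap, and ES_HLC and mESC were under the floor level. F5 rose by 7.62 ± 0.20 in Ad_Hep over mESC (adjusted p = 1.34e-11). In ES_HLC its difference of 0.57 ± 0.20 passed the p-value (adjusted p = 0.0486) but not the minimum of 1 log2 unit.

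F8, which codes for the cofactor of factor IX and is made mainly by liver sinusoidal endothelium, read 5.33, 5.79 and 5.96 in ES_HLC, 7.96, 6.31 and 7.08 in Ad_Hep, and 4.62, 4.40, 4.93 and 4.28 in mESC. The kinds did not overlap, but the adult arrays spread widely. F8 rose by 2.56 ± 0.32 in Ad_Hep over mESC (adjusted p = 2.24e-05) and by 1.14 ± 0.32 in ES_HLC over mESC (adjusted p = 0.0168). The call in ES_HLC was lost when ES_HLC replicate 2 (1.09, adjusted p = 0.0551) or replicate 3 (1.003, adjusted p = 0.0632) was left out, and the alternatives gave adjusted p = 0.00297 to 0.0632. Of 10 endothelial markers 7 were higher and 1 lower in Ad_Hep than in mESC, with the mean of the list at 7.32 to 7.49 in Ad_Hep and 5.61 to 5.80 in mESC. In Ad_Hep the sinusoidal marker Stab2 read 7.28, 8.19 and 7.70 and Clec4g 8.90, 8.62 and 9.15, while Emcn was under the floor level on all 10 arrays. In ES_HLC the endothelial list averaged 5.15 to 5.73, with 2 of 10 higher and 3 lower than in mESC. The 2 that rose were Cdh5 and Kdr. Cdh5 read 6.58 to 7.79 in ES_HLC and 5.03 to 5.45 in mESC, and Kdr 7.30 to 7.77 and 4.44 to 5.32. The 3 that fell were Pecam1, Tek and Eng. Eng read 5.35 to 6.11 in ES_HLC and 9.12 to 9.98 in mESC. The part of endothelial cells in the level of F8 was not tested.

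Vwf, the gene of the endothelial and platelet protein that carries factor VIII, was the member that fell in ES_HLC. It read 5.09, 4.91 and 4.74 in ES_HLC, 4.98, 5.29 and 5.20 in Ad_Hep, and 6.04, 6.95, 6.08 and 6.99 in mESC. The stem cells lay above both other kinds, which were under the floor level. Vwf fell by 1.60 on the log2 scale in ES_HLC relative to mESC (SE 0.25, adjusted p = 3.08e-04), and in Ad_Hep it fell by 1.35 (SE 0.25, adjusted p = 5.47e-04). The endothelial marker Pecam1 was likewise highest in mESC, at 6.05 to 6.71 in ES_HLC, 7.21 to 7.33 in Ad_Hep and 9.25 to 9.87 in mESC. Most of the endothelial list did not share this pattern. Of its 10 markers 7 had an mESC mean under the floor level, among them Cdh5 (5.34), Kdr (4.89) and Stab2 (4.37). In Ad_Hep 7 of the 10 were called higher and 1 lower than in mESC, and in ES_HLC 2 higher and 3 lower.

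The contact system starts clotting on charged surfaces and releases bradykinin. All 4 measured genes that are grouped here with the contact system rose in Ad_Hep over mESC, where 11% of all genes were called higher. In ES_HLC against mESC 0 of 4 were called, where 8.61% of all genes were higher and 7.35% lower. The 4 genes, with their rises in Ad_Hep, were F12 (6.75 ± 0.17), F11 (4.68 ± 0.19), the kininogen gene Kng1 (6.67 ± 0.30) and Hrg. Hrg codes for a histidine-rich plasma glycoprotein that binds heparin and plasminogen. Hrg read 3.69, 3.55 and 4.96 in ES_HLC, 11.76, 12.08 and 11.98 in Ad_Hep, and 3.55, 3.89, 3.57 and 3.77 in mESC. ES_HLC replicates 1 and 2 were at the level of the stem cells and replicate 3 above them, though under the floor level. Hrg rose by 8.24 ± 0.28 in Ad_Hep over mESC (adjusted p = 1.05e-10) and was lower in ES_HLC than in Ad_Hep by -7.87 ± 0.30 (adjusted p = 3.84e-10). Its difference between ES_HLC and mESC was 0.37 ± 0.28, and -0.08 without ES_HLC replicate 3 (adjusted p = 0.406 and 0.802). Mouse Kng1 has a close paralog, Kng2, and probes may not separate them fully.

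Of the inhibitors, antithrombin (Serpinc1) and heparin cofactor II (Serpind1) block thrombin, the protein Z-dependent inhibitor (Serpina10) blocks factor X, and alpha-2-antiplasmin (Serpinf2) blocks plasmin. All 4 rose in Ad_Hep over mESC. Serpinc1 read 4.03, 4.08 and 5.33 in ES_HLC, 11.84, 11.85 and 11.89 in Ad_Hep, and 3.78, 3.80, 3.35 and 3.89 in mESC. Each ES_HLC array lay above the stem cells, replicates 1 and 2 narrowly, and all 3 were under the floor level. Serpinc1 rose by 8.16 ± 0.28 in Ad_Hep (adjusted p = 9.52e-11) and differed by 0.77 ± 0.28 between ES_HLC and mESC (adjusted p = 0.0532), and by 0.35 without ES_HLC replicate 3 (adjusted p = 0.193).

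Serpind1 read 4.90, 4.56 and 5.46 in ES_HLC, 12.69, 12.36 and 12.40 in Ad_Hep, and 4.67, 4.64, 4.53 and 4.65 in mESC. ES_HLC and mESC overlapped under the floor level. Serpind1 had the largest difference among the inhibitors between ES_HLC and Ad_Hep (-7.51 ± 0.21, adjusted p = 3.62e-11). Serpinf2 and Serpina10 rose by 7.23 ± 0.17 and 5.82 ± 0.15 in Ad_Hep over mESC. In ES_HLC over mESC Serpinf2 differed by 0.71 ± 0.17, which passed the p-value (adjusted p = 0.00594) and not the minimum of 1, and Serpina10 by 0.18 ± 0.15 (adjusted p = 0.457).

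Of the 6 inhibitor genes 5 rose and 1, Tfpi, fell in Ad_Hep over mESC, while in ES_HLC over mESC 1, again Tfpi, rose. Of all genes, 11% were higher and 15.6% lower in Ad_Hep against mESC, and 8.61% higher in ES_HLC against mESC. Tfpi, whose product blocks the tissue factor complex and is known from endothelium, read 8.55, 8.34 and 7.73 in ES_HLC, 5.91, 5.95 and 5.85 in Ad_Hep, and 7.03, 6.59, 7.42 and 6.57 in mESC. The 3 kinds did not overlap, with ES_HLC highest and Ad_Hep lowest. Tfpi rose by 1.30 ± 0.24 in ES_HLC over mESC (adjusted p = 0.00110) and by 2.31 ± 0.26, 4.94-fold, over Ad_Hep (adjusted p = 1.10e-05). In Ad_Hep it fell by 1.001 relative to mESC (SE 0.24, adjusted p = 0.00401), a call at the edge of the minimum. That call was lost without Ad_Hep replicate 3 (-0.97), without mESC replicate 1 (-0.96) or 3 (-0.83), and with quantile normalization again (-0.91). Tfpi2, a protease inhibitor of the extracellular matrix, averaged 4.53 ± 0.41 in ES_HLC, 8.89 ± 0.32 in Ad_Hep and 3.94 ± 0.36 in mESC (SD, n = 3, 3 and 4). It rose by 4.95 ± 0.25 in Ad_Hep over mESC (adjusted p = 3.52e-09). Its difference of 0.59 ± 0.25 in ES_HLC over mESC was not called (adjusted p = 0.0949).

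The plasminogen system split between its plasma zymogen and its activators. Plg, the gene of plasminogen, read 4.49, 4.56 and 5.63 in ES_HLC, 12.38, 12.31 and 12.28 in Ad_Hep, and 4.67, 4.72, 4.66 and 4.52 in mESC. ES_HLC replicate 3 alone lay above the stem cell range. Plg rose by 7.68 ± 0.24 in Ad_Hep over mESC (adjusted p = 4.06e-11). Its difference between ES_HLC and mESC was 0.25 ± 0.24 (adjusted p = 0.517), and -0.12 without ES_HLC replicate 3 (adjusted p = 0.642). Vtn, the gene of vitronectin, which stabilises the inhibitor of plasminogen activators, read 4.99, 5.83 and 5.82 in ES_HLC, 12.64, 12.73 and 12.63 in Ad_Hep, and 4.94, 4.66, 5.08 and 4.93 in mESC. ES_HLC and mESC overlapped in replicate 1 of ES_HLC. Vtn rose by 7.77 ± 0.21 in Ad_Hep over mESC (adjusted p = 1.45e-11), and its difference of 0.64 ± 0.21 in ES_HLC was under the minimum (adjusted p = 0.0344).

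Plat codes for tissue plasminogen activator. It read 9.17, 10.18 and 8.22 in ES_HLC, 5.18, 5.86 and 5.59 in Ad_Hep, and 5.52, 5.90, 5.44 and 5.81 in mESC. ES_HLC lay above both other kinds, which overlapped around the floor level. Plat rose 11.5-fold in ES_HLC over mESC (3.52 ± 0.35, adjusted p = 1.01e-05) and 12.5-fold over Ad_Hep (3.65 ± 0.38, adjusted p = 5.96e-06). Plau, the gene of urokinase, read 6.45, 6.62 and 7.09 in ES_HLC, 5.32, 4.60 and 4.53 in Ad_Hep, and 4.83, 4.88, 4.77 and 5.16 in mESC. All ES_HLC arrays lay above both other kinds. Plau rose by 1.81 ± 0.22 in ES_HLC over mESC (adjusted p = 5.40e-05) and by 1.90 ± 0.24 over Ad_Hep (adjusted p = 3.21e-05).

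Plaur, the gene of the urokinase receptor, which holds urokinase at the cell surface, read 7.93, 8.95 and 8.80 in ES_HLC, 4.85, 5.63 and 5.56 in Ad_Hep, and 6.09, 6.38, 6.89 and 5.94 in mESC. The 3 kinds did not overlap. Plaur rose by 2.24 ± 0.30 in ES_HLC over mESC (adjusted p = 9.64e-05) and by 3.22 ± 0.32, 9.29-fold, over Ad_Hep (adjusted p = 3.66e-06). Its difference of -0.98 ± 0.30 between Ad_Hep and mESC was just under the minimum of 1 (adjusted p = 0.0170), and it was called without Ad_Hep replicate 2 (-1.12) or 3 (-1.09) and without mESC replicate 1 (-1.06) or 4 (-1.11). Both activator genes and the receptor gene were thus higher in ES_HLC than in both other kinds, while Plg averaged 4.89 there.

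All 3 receptor genes rose in ES_HLC over mESC, where 8.61% of all genes were called higher. F2r, the gene of the thrombin receptor PAR1, had the largest rise of any member there. It read 12.48, 12.51 and 12.43 in ES_HLC, 7.09, 7.59 and 7.15 in Ad_Hep, and 7.70, 8.25, 8.10 and 8.25 in mESC. ES_HLC arrays were tightly grouped (SD 0.04) and far above both other kinds. F2r rose 21.1-fold in ES_HLC over mESC (4.40 ± 0.18, adjusted p = 8.36e-09) and 36.7-fold over Ad_Hep (5.20 ± 0.20, adjusted p = 3.19e-10). Replicate 3 did not stand apart in F2r.

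Thbd, the gene of thrombomodulin, which turns thrombin toward activating protein C, read 6.62, 6.56 and 7.38 in ES_HLC, 5.75, 5.78 and 5.77 in Ad_Hep, and 5.30, 5.26, 5.39 and 5.41 in mESC. The 3 kinds did not overlap. Thbd rose by 1.52 ± 0.19 in ES_HLC over mESC (adjusted p = 6.94e-05) and by 1.09 ± 0.21 over Ad_Hep (adjusted p = 9.56e-04). The second call was lost without ES_HLC replicate 3 (0.83), with quantile normalization again (0.99) and with array weights (0.99). Procr, the gene of the endothelial protein C receptor, read 7.001, 7.45 and 6.77 in ES_HLC, 6.01, 6.14 and 6.79 in Ad_Hep, and 6.36, 6.04, 5.76 and 5.85 in mESC. It rose by 1.07 ± 0.23 in ES_HLC over mESC (adjusted p = 0.00354), a call lost without ES_HLC replicate 2 (0.88), without mESC replicate 3 (0.99) and after median centring of each array (0.99). Against Ad_Hep, with which its arrays overlapped, the difference of 0.76 ± 0.25 was under the minimum (adjusted p = 0.0294), and without Ad_Hep replicate 3 it was 1.002 and called (adjusted p = 0.00829).

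**Figure D3:**
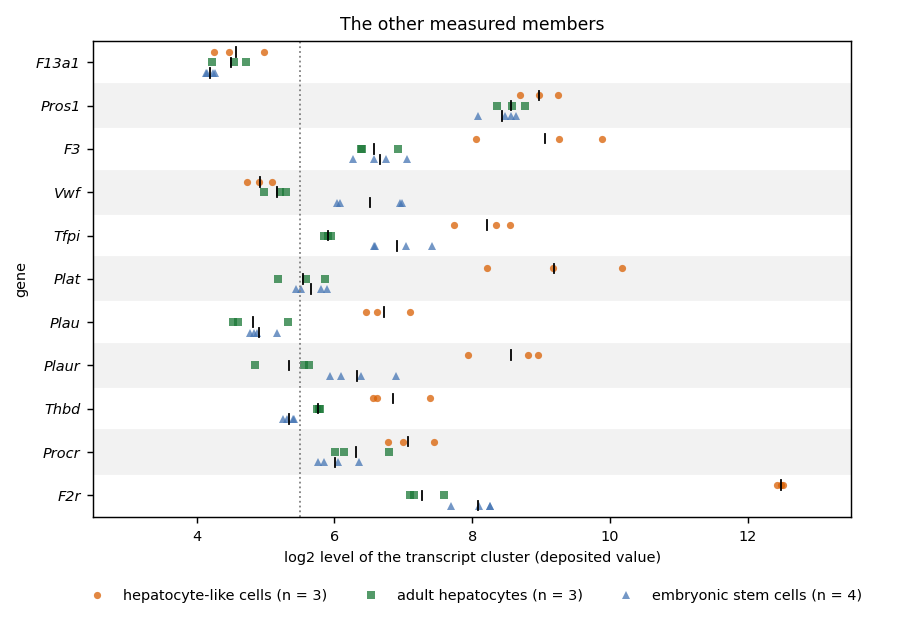
Deposited log2 levels of the other 11 measured members; each point is an array, black ticks are group means and the dotted line marks 5.5. F2r stands at 12.43 to 12.51 in ES_HLC, F3, Plat, Plau, Plaur, Tfpi and Thbd are also highest there, and Vwf is highest in mESC.

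Markers of some other cell types were also higher in ES_HLC. Of 9 markers of stellate cells and fibroblasts 6 were higher in ES_HLC than in mESC, and the mean of the list was 9.79, 8.87 and 7.92 in ES_HLC replicates 1, 2 and 3, 5.79 to 5.88 in Ad_Hep and 5.17 to 5.498 in mESC. Against Ad_Hep 7 of the 9 were higher in ES_HLC and 1 lower. The stellate cell marker Lrat was lower, at 3.97 to 4.66 in ES_HLC, 7.74 to 8.24 in Ad_Hep and 4.12 to 4.65 in mESC. Among the ES_HLC arrays this list was highest in replicate 1. Tfpi was highest there too, at 8.55, 8.34 and 7.73 in replicates 1, 2 and 3. F3, Plau and Plaur were lowest there. Plat and Procr were highest in replicate 2 and Thbd in replicate 3, and F2r read 12.43 to 12.51. Of 9 markers of parietal and visceral endoderm 7 were higher in ES_HLC than in mESC, with the list mean at 8.44 to 8.89 in ES_HLC, 6.55 to 6.80 in Ad_Hep and 6.01 to 6.19 in mESC. Sox7 and Sox17 were not among the 7, at means of 4.89 and 6.05 in ES_HLC and 4.73 and 5.54 in mESC. In Ad_Hep 4 of the 9 were higher and 1 lower than in mESC. Of 4 measured trophoblast markers 2 were higher and 1 lower in ES_HLC than in mESC, and the list mean was 5.95, 6.21 and 8.501 on the ES_HLC arrays, 5.02 to 5.41 in Ad_Hep and 5.57 to 5.95 in mESC. Of 5 measured platelet markers 1, Ppbp, was higher, and Pf4 was under the floor level on all 10 arrays. Of 8 macrophage markers 1 was higher and 1 lower in ES_HLC than in mESC, with list means of 4.71 to 4.92 in ES_HLC, 6.36 to 6.53 in Ad_Hep and 4.795 to 4.94 in mESC. The part of these cell types or of endothelium in the levels of F3, Plat, Plau, Plaur, Tfpi, Thbd, Procr and F2r was not tested.

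The single ES_HLC arrays differed in the members that Ad_Hep express. At least 1 log2 unit above the stem cell mean were 8 of 34 members in replicate 1, 11 in replicate 2 and 12 in replicate 3, where 8.65%, 9.35% and 10% of all genes were. Of the 23 members called higher in Ad_Hep this held for 1 in replicate 1 (Fgb), for 3 in replicate 2 (Fgb, Fgg and F8) and for 6 in replicate 3, which added Fga, Hrg and Serpinc1 to those of replicate 2. Of all 2443 genes called higher in Ad_Hep it held for 24.2% in replicate 1, 27.6% in replicate 2 and 29% in replicate 3. The median of the 23 over the stem cell mean was 0.26, 0.33 and 0.71 in replicates 1, 2 and 3, or 3.97%, 4.57% and 9.80% of the log2 distance to Ad_Hep. Replicate 3 was the highest of the 3 arrays for 13 of the 23 members, replicate 2 for 6 and replicate 1 for 4. Among all 2443 genes called higher in Ad_Hep replicate 3 was the highest for 39.1%. In replicate 3 the excess was 1.62 for Serpinc1, 1.26 for Hrg, 0.98 for Plg and 0.94 for Kng1, and 0.08 for F2, 0.01 for F13b and -0.11 for Proz. Alb at 10.80 and the hepatocyte marker list, with means of 5.501, 5.75 and 7.19 in replicates 1, 2 and 3, were also highest in replicate 3. Apoa1 (6.95, 7.97 and 6.801) and Hnf4a (6.66, 7.13 and 6.12), of the same list, were lowest there. The trophoblast list mean (8.501), Nanog and Tdgf1 were highest in replicate 3 as well. The part of these cell types in the values of replicate 3 was not tested. Without replicate 3 the differences of ES_HLC from mESC were 0.19 for Kng1 and 0.11 for Serpind1, against 0.44 and 0.35 with it, and 10 members were called higher in ES_HLC than in mESC in place of 11.

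**Figure D4:**
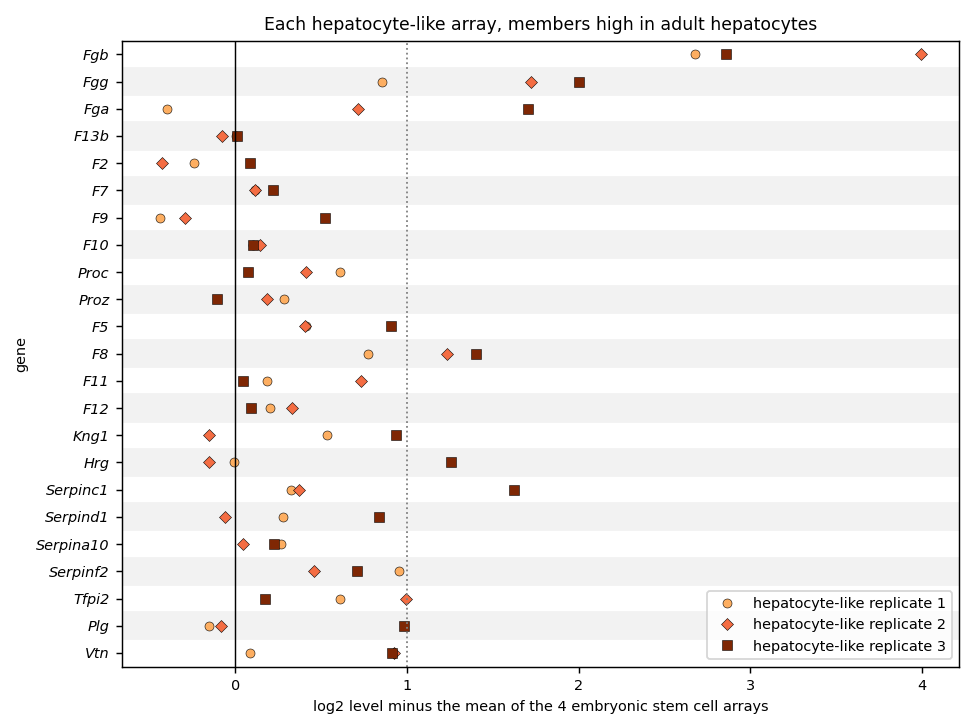
Log2 level of each ES_HLC array minus the mean of the 4 mESC arrays, for the 23 members called higher in Ad_Hep; the dotted line marks 1 log2 unit. Fgb lies at 2.68 to 4.00 on all 3 arrays, while Serpinc1 and Hrg pass 1 only in replicate 3, at 1.62 and 1.26.

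Further genes of the pathway that are not among the 37 were taken from a list of 47, of which 42 were measured. In ES_HLC against mESC 13 of 42 rose and 3 fell, where 8.61% of all genes were called higher and 7.35% lower. The largest rises were those of the adhesive glycoprotein gene Thbs1 (6.54 ± 0.31), of Anxa2 (5.23 ± 0.21), a cell surface receptor for plasminogen and its tissue activator, of the phospholipid-binding annexin Anxa5 (3.59 ± 0.18), the transglutaminase Tgm2 (3.03 ± 0.27) and Gas6 (2.58 ± 0.27), which is related to protein S. S100a10, the partner of Anxa2, rose by 2.39 ± 0.21 and was named after its values were seen. Nqo1 (-3.52 ± 0.20), Kng2 (-1.73 ± 0.48) and A2m (-1.11 ± 0.29) fell. The call was lost for Kng2 without ES_HLC replicate 2 (-1.04, adjusted p = 0.0599) and for A2m without replicate 3 (-0.91).

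In Ad_Hep against mESC 22 of 42 of these genes rose and 2 fell, where 11% of all genes were called higher and 15.6% lower. The 2 that fell were Nqo1 (-2.98 ± 0.20) and A2m (-1.32 ± 0.29). The largest rises were those of the protease inhibitor genes Serpina1c (8.93 ± 0.83), Pzp (8.42 ± 0.48) and Serping1 (6.36 ± 0.49), the phospholipid-binding Apoh (7.80 ± 0.26) and C4bp (7.29 ± 0.16), whose product carries protein S in human plasma. Serpina1c belongs to a family of near-identical copies, so its probes may read several of them. In ES_HLC against Ad_Hep 9 rose and 18 fell, where 13.9% of all genes were called higher and 9.12% lower. Highest were Thbs1 (6.14 ± 0.34), Anxa2 (5.58 ± 0.23), Anxa5 (4.13 ± 0.19), Itgb3 (2.12 ± 0.31) and Serpinb2 (1.85 ± 0.57), a plasminogen activator inhibitor gene. Lowest were Pzp (-7.83 ± 0.52), Serpina1c (-7.52 ± 0.89), Apoh (-7.23 ± 0.28), C4bp (-7.003 ± 0.17) and Kng2 (-6.17 ± 0.51). Serpinb2 read 3.38, 4.97 and 6.63 in ES_HLC and 2.95, 3.39 and 3.09 in Ad_Hep, which overlapped. Its call was lost without ES_HLC replicate 3 (1.03, adjusted p = 0.0542) and without Ad_Hep replicate 1 (1.75) or 3 (1.82). These single arrays were left out after the data were seen. The median log2 difference of the 42 genes was 0.29, 1.23 and -0.48 in these 3 comparisons.

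The promoter motifs were also counted over the members, of whose 37 genes 29 had a window in the RefSeq table (GRCm38.p6). On either strand, gttaat was found for 7 of these 29 genes (F13b, F2, Fga, Fgb, Proz, Tfpi2 and Vtn) and for 8.24% of the 27025 genes with a window, and all 7 were among the members called higher in Ad_Hep, of which 19 had a window. The C/EBP motif ttgcnnaa was found for 10 of 29 genes, Klkb1 and Cpb2 among them, and for 12.2% of all genes. Of the 10 genes, 6 were among the members called higher in Ad_Hep, and Plaur and Procr were measured and not called higher there. The HNF4 motif caaagtcca was found for 0 of 29 genes and for 0.555% of all genes, and the full HNF1 palindrome (gttaat, any base, and its reverse complement) for 0 of 29 and for 3 genes of all. These counts describe letters in a window of 300 bases and say nothing of binding.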

How the data were processed

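RNA of 10 mouse samples was isolated with TRIzol and hybridised to arrays with a biotin label, per the labels' protocols. The authors deposited 1 table of log2 values for 41345 transcript clusters. RMA, Transcriptome Analysis Console, R 3.3.1 and oligo 1.38.0 appear in the submitters' processing notes, with no role for each. The log2 scale was inferred here from the range of the values (1.27 to 13.58). The genome build is not given in the sources used here, and the table holds no background signal. Groups follow the sample titles.

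Clusters with exactly 1 symbol in the platform annotation (23521) were kept, and per symbol the cluster with the highest mean over the 10 arrays. All 34 measured members had a single cluster and matched RefSeq by Entrez ID. Differences (2-sided) come from lmFit and eBayes of limma 3.58.1, under R 4.3.3, in 1 fit of the 3 group means, adjusted over 22180 genes by the Benjamini-Hochberg method. The members, lists and thresholds were chosen with earlier results of these data known. By rule, values of all arrays are given for members called between ES_HLC and mESC, for those with the largest differences in each role and for those whose ES_HLC arrays spread by over 2 units. Of the other pathway genes, the 5 called with the largest differences each way are named. The scripts were tested on simulated data. Deviations from the group means correlated at -0.19 to 0.14 over 9 pairs of arrays with the same replicate number. Over 24 pairs with different numbers they correlated at -0.25 to 0.23. The numbers were therefore not taken as pairing, though so few pairs cannot show that there was none. Alternatives covered normalization, dim genes, the choice of cluster, the variance model, array weights, the samples in the fit, a replicate block, single arrays left out and thresholds. Python 3.11.15 with matplotlib 3.10.9 drew the plots.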

Additional observations from a re-analysis of the deposited data

Results flagged for a closer look

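The transcript cluster annotated to both Klkb1, the gene of plasma prekallikrein, and Cyp4v3 was left out of the comparisons because it cannot be assigned to either gene. It carried signal in Ad_Hep: it read 4.11, 4.55 and 4.40 in ES_HLC, 11.05, 10.997 and 11.04 in Ad_Hep, and 4.32, 4.16, 4.46 and 4.11 in mESC. With every cluster in the limma fit (41345) it was 6.77 ± 0.16 above mESC in Ad_Hep (adjusted p = 1.61e-10), and differed by 0.09 ± 0.16 between ES_HLC and mESC (adjusted p = 0.780). Of the 34 members examined, 0 had an mESC array standing apart from the other 3 by Dixon's criterion, where chance flags about 1 in 20.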

How the results depend on the processing

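Under the alternatives run, 23 members were called higher in Ad_Hep against mESC and 23 lower in ES_HLC against Ad_Hep throughout. Members called higher in ES_HLC against mESC numbered 9 to 12 with 1 array left out (9 without ES_HLC replicate 2) and 10 to 14 otherwise. Members called lower in Ad_Hep against mESC numbered 1 to 3 with 1 array left out (1 without mESC replicate 3), 1 with quantile normalization again and 4 with no minimum difference, against 2. With 2 log2 units in place of 1, ES_HLC replicates 1 and 2 had 3 and 5 members above the mESC mean, against 8 and 11. The replicate numbers were not taken as pairing. With them as a replicate block 11, 23 and 7 members were higher in ES_HLC against mESC, Ad_Hep against mESC and ES_HLC against Ad_Hep. The block turned the sign of F13b in ES_HLC against mESC (0.0229). Quantile normalization again turned F3 in Ad_Hep against mESC (0.0737). Other changes of sign came with 1 array left out and were of uncalled differences. In ES_HLC against mESC the ranges were -0.0568 to 0.0229 for F13b, -0.36 to 0.12 for F9, -2e-04 to 0.23 for Proz, -0.0784 to 0.63 for Hrg and -0.12 to 0.45 for Plg. In Ad_Hep against mESC they were -0.27 to 0.0361 for F3, -0.28 to 0.0574 for Plat and -0.35 to 0.0485 for Plau, and in ES_HLC against Ad_Hep -0.13 to 0.23 for F13a1. Plaur in Ad_Hep against mESC passed the minimum with arrays centred on the median (-1.08), under the block (-1.11) and with any of 4 single arrays left out (-1.06 to -1.12). With 1 array left out, a setting chosen after the data were seen, the other pathway genes called higher numbered 12 to 13 in ES_HLC against mESC, 22 in Ad_Hep against mESC and 7 to 9 in ES_HLC against Ad_Hep. The causes were not tested. The search for a protein motif was not run.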
